A study of Mus musculus with 2 samples.

Results

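The receptors for the constant part of IgG, their shared signalling chain and the kinase Syk were followed in cells sorted from the dentate gyrus of the mouse hippocampus. The 6 genes were given by name: Fcgr1, Fcgr2b, Fcgr3, Fcgr4, Fcer1g and Syk, out of 32285 genes in the tables, and all 6 were present. The study asked what loss of VEGF from adult neural stem and progenitor cells (NSPCs) does to their gene expression. Both genotypes carried NestinCreERT2, a tamoxifen (TAM)-inducible Cre driven by a Nestin promoter, and a ROSA-STOP-EYFP reporter, together with VEGF WT/WT alleles in WT mice and a floxed VEGF gene in iKD mice. Mice of both sexes, 7 to 10 wk old, received TAM at 180 mg/kg/d for 5 d, and EYFP+ cells were sorted 21 d after TAM. Cells of 5 mice were pooled into 1 library per genotype, so no value below has a replicate and no test between genotypes was possible.

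The deposited tables place the cells in 12 named clusters. They hold 5543 WT cells with a median of 8051 UMIs (unique molecular identifiers, 1 per captured RNA molecule) and 5261 iKD cells with a median of 7080 UMIs, and 9 cell barcodes occur in both libraries. The 6 clusters that the study used for its comparison of genotypes (qNSC1, qNSC2, aNSC, NSPCs, IPC1 and IPC2, named for quiescent and active NSCs, NSPCs and intermediate progenitors) hold 3752 WT and 3412 iKD cells. Their names were checked against markers. All 12 microglia markers (among them Cx3cr1, P2ry12, Tmem119 and C1qa) had a UMI in at least 88.1% of these cells, while the 9 neural stem cell markers had a median share of 0.335% and a highest share of 1.95%. The cluster names are therefore kept below only as labels. Some other cells known for Fc receptors were scarce by the same measure. The median share was 0.063% for border macrophage markers, 0.244% for monocyte markers, 0 for neutrophil markers and 0.028% for NK cell markers. All 7 mast cell and basophil markers were at 0. Of the B cell markers, Cd79b had 858 UMIs in WT and 643 in iKD, and Cd79a 3 and 1. The shares of the B cell and dendritic cell lists are not given here.

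Fc gamma receptors are surface proteins of myeloid and other immune cells that bind the constant part of IgG and so tie antibody-coated targets to uptake and signalling. In the mouse, Fcgr1 (FcγRI, of high affinity), Fcgr3 (FcγRIII) and Fcgr4 (FcγRIV) are activating ligand-binding chains that depend on the common γ chain encoded by Fcer1g, which carries the cytoplasmic ITAM (immunoreceptor tyrosine-based activation motif). Fcgr2b (FcγRIIB) is the inhibitory receptor and carries its own inhibitory motif. Src family kinases such as Lyn phosphorylate the ITAM, the kinase Syk docks there, and phosphatases such as SHIP1 (Inpp5d) act against the signal. Microglia, the resident macrophages of the brain, are known to express all of these parts.

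In the GRCm38 annotation, 4 members lie on chromosome 1 within 275.749 kb: Fcgr2b at chr1:170958617-170976547 on the minus strand, Fcgr4 at chr1:171018920-171029761 on the plus strand, Fcgr3 at chr1:171051174-171064935 on the minus strand and Fcer1g at chr1:171229572-171234365 on the minus strand. Fcgr1 lies apart, at chr3:96282909-96293969 on the minus strand, and Syk at chr13:52583173-52648792 on the plus strand. Fcgr2b overlaps the antisense gene Gm38204, Fcgr3 the miRNA gene Mir6546 and Fcgr4 the small nuclear RNA gene Gm26110. Fcgr2b and Fcgr3 resemble each other in sequence: 14.3% of the 31-base words of the Fcgr3 transcripts also occur in Fcgr2b transcripts, but only 0.521% of those in the last 500 bases, where 3′ libraries are counted, and 5.10% of the words in the last 500 bases of Fcgr2b occur in Fcgr3. No 31-base word was shared between any other members, so a division of reads between genes concerns Fcgr2b and Fcgr3 and leaves those 2 values the less certain.

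The promoters of the 3 activating chains are shown because Fcgr1 and Fcgr4, but not Fcgr3, had their highest level in aNSC, as described below. They are RefSeq sequences of GRCm38.p6 from 250 bases before to 50 bases after the annotated start, written 5′ to 3′ on the strand of the gene. Capitals mark GAGGAA on either strand (here read as TTCCTC), the core bound by the myeloid factor PU.1.
Fcgr1 promoter (chr3:96293920-96294219, minus strand): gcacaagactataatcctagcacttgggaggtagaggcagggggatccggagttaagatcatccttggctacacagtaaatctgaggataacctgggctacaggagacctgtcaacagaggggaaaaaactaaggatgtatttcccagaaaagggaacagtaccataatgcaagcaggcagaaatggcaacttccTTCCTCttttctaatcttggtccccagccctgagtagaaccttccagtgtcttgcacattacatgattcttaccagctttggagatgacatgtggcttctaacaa
Fcgr4 promoter (chr1:171018676-171018975, plus strand): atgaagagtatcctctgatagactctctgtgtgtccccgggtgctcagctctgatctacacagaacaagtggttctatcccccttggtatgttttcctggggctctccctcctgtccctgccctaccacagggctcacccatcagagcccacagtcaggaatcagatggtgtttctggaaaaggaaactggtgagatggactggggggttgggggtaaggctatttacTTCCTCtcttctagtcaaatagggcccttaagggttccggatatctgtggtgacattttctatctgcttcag
Fcgr3 promoter (chr1:171059345-171059644, minus strand): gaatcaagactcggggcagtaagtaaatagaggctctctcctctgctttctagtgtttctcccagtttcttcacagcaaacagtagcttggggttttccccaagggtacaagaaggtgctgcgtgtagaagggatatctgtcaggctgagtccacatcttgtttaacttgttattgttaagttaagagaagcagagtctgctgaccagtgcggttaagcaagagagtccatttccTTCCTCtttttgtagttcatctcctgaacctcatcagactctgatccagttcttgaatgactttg
GAGGAA on either strand was found in each of them, with its leftmost letter at -55 from the annotated start in Fcgr1, -22 in Fcgr4 and -15 in Fcgr3. Another Fcgr3 promoter in the RefSeq table, chr1:171059354-171059653, had the same letters at -6. Both Fcgr3 windows lie inside the gene span given above, not at its end. GAGGAA was also found in 1 of the 2 Syk promoters in the RefSeq table, at -9, and in none for Fcer1g or Fcgr2b. The same letters occur in 28.3% of 32851 mouse promoters of 300 bases. The letters describe the windows and were not tested for use in these cells.

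Levels are given as the mean over cells of counts per 10,000 UMIs of the cell. Since a 3′ UMI count scores each captured molecule once whatever the length of the RNA, levels of different genes are set side by side as molecules, and the efficiency of capture per gene is unknown. In the 6 clusters Fcer1g had a level of 16.1 in WT and 15.8 in iKD and ranked 50 of 32285 genes over both genotypes. Fcgr3 was the most abundant ligand-binding chain, at 8.14 in WT and 7.74 in iKD. Fcgr1 had 3.62 in WT and 3.38 in iKD. The inhibitory Fcgr2b had 1.67 in WT and 1.49 in iKD, close to the kinase Syk at 1.60 and 1.53. Fcgr4 was lower than all of these in both libraries, at 0.070 in WT and 0.066 in iKD, and ranked 9511.

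The share of cells with a UMI followed the same order. Over both genotypes it was 99.8% for Fcer1g, 98.8% for Fcgr3, 89.3% for Fcgr1, 65.3% for Fcgr2b, 64.5% for Syk and 4.37% (exact binomial 95% interval 3.91 to 4.87) for Fcgr4. These shares depend on depth. After each cell was thinned to 4500 UMIs, which left out 216 cells of the 6 clusters, they were 99.7%, 95.6%, 76.3%, 48.5%, 47.7% and 2.89% (2.51 to 3.31). For comparison, the astrocyte-named cluster, in which all 8 choroid plexus markers were prominent, had a Fcgr4 UMI in 0 of 134 cells, so that a share of at most 2.24% is allowed, at a median depth of 7722 UMIs against 7546 in the 6 clusters. Its shares of the other members were not 0, at 42.5% for Fcer1g and 14.2% for Syk, so it gives no clean background for Fcgr4.

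The next comparison asked how the members varied among the 8 clusters from qNSC1 to NB, which add eNB and NB (early neuroblasts and neuroblasts by name). The clusters were made from the expression of these same cells, so their differences are a description. Fcgr1, the high-affinity receptor, stood out in aNSC. Its level there was 7.83 in WT and 7.24 in iKD, while the 7 other clusters ran from 2.33 (qNSC1) to 3.62 (NSPCs) in WT and from 2.52 to 3.54 in iKD. The next cluster, NSPCs, had 3.58 over both genotypes against 7.62 in aNSC, and the ranges of the libraries did not overlap. Every cell group that was scored by sex had the high level: 6.81 in WT female cells, 7.98 in WT male cells, 7.04 in iKD female cells and 7.50 in the 6 iKD male cells. Cells scored as female made up 19.3% of aNSC in WT and 88.9% in iKD.

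Fcgr4, the least abundant of the activating chains, was likewise highest in aNSC, at 0.282 in WT (46 UMIs, exact Poisson interval 33.7 to 61.4) and 0.230 in iKD (18 UMIs, 10.7 to 28.4). Of the aNSC cells 14.8% (10.97 to 19.2) had a Fcgr4 UMI, and 9.40% (6.33 to 13.3) after thinning. In the 7 other clusters the level over both genotypes lay between 0.052 (IPC1) and 0.094 (qNSC1), and 5 of 7 neighbouring pairs in the order of clusters overlapped. From highest to lowest cluster, the fold was 5.02 for Fcgr4 and 3.13 for Fcgr1.

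**Figure D1:**
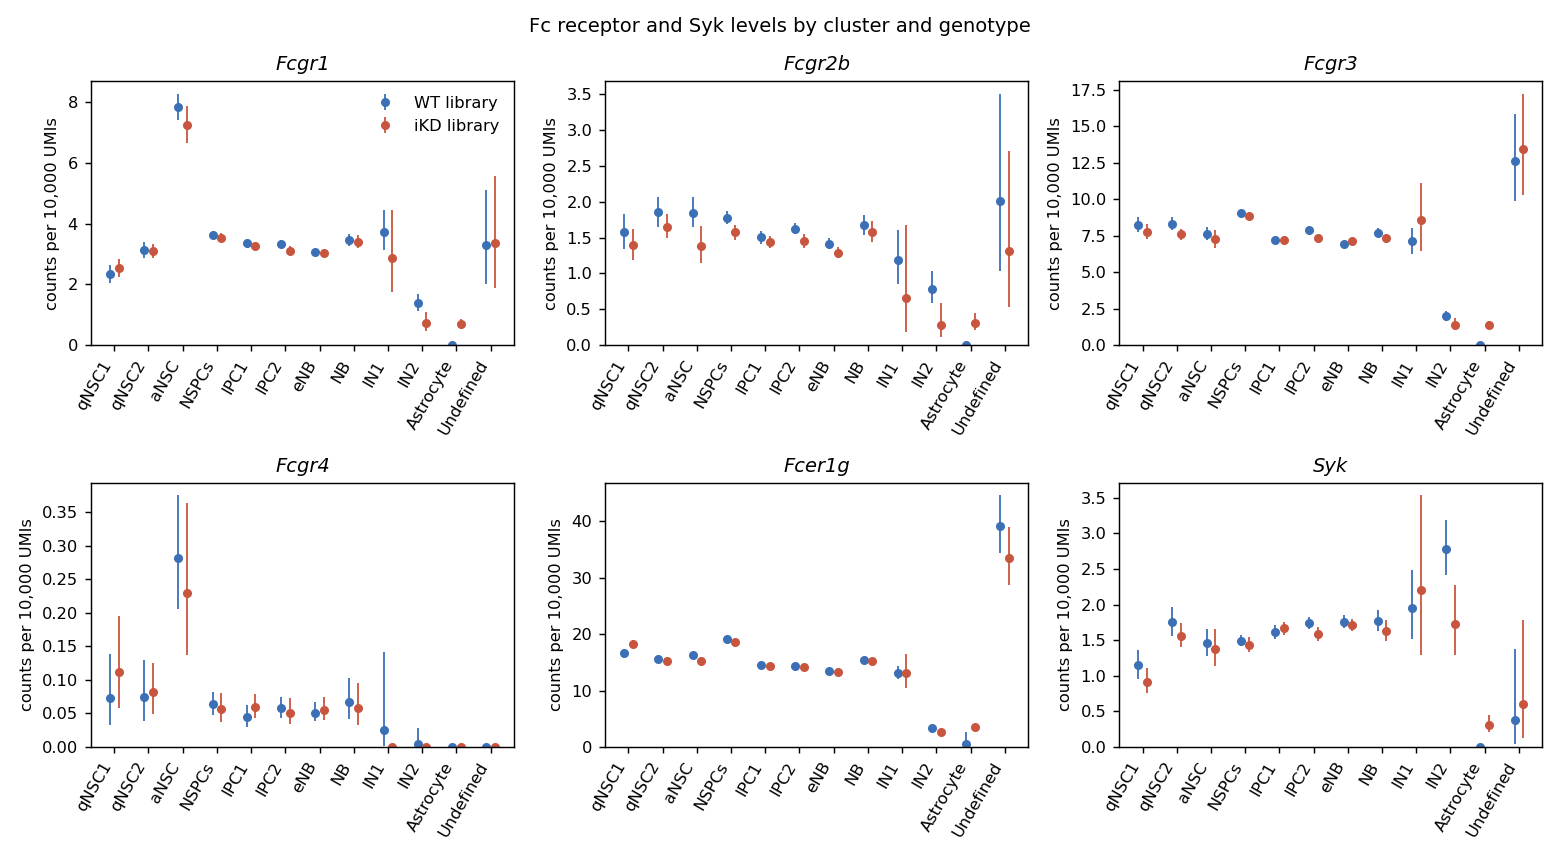
Levels of the 6 genes (y axis, mean counts per 10,000 UMIs, from 0) in the 12 deposited clusters (x axis), with the WT library in blue and the iKD library in red. Bars are exact Poisson intervals of the summed UMIs, points at 0 without a bar had no UMI, and the astrocyte-named cluster has 4 WT cells. Fcgr1 and Fcgr4 are highest in aNSC in both libraries, and Syk is high in IN2 of WT, where Fcer1g and Fcgr3 are low.

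The other members varied less. The common γ chain gene Fcer1g and Fcgr3 had the same extremes: both were highest in NSPCs, at 18.9 and 8.98 over both genotypes, and lowest in eNB, at 13.4 and 7.04. The fold between extremes was 1.40 for Fcer1g and 1.28 for Fcgr3. Fcgr2b ran from 1.73 in qNSC2 to 1.35 in eNB, also a fold of 1.28, and 6 of 7 neighbouring clusters in its order overlapped between libraries. Syk was highest in eNB, where Fcer1g and Fcgr3 were lowest, at 1.73 over both genotypes, and lowest in qNSC1, at 1.02. In WT alone it was highest in NB, at 1.77 against 1.76 in eNB. Its level in qNSC1 was 1.15 in WT and 0.919 in iKD, below both libraries of aNSC, the next cluster, at 1.46 and 1.38.

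Across these 8 clusters the correlation of log2 levels was 0.89 between Fcer1g and Fcgr3, 0.79 between Fcgr1 and Fcgr4 and -0.67 between Fcer1g and Syk. Fcgr1 and Fcgr3, both activating chains that use the γ chain, had a correlation of -0.09. The 8 points share their libraries, and the value for Fcgr1 and Fcgr4 turns on aNSC.

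The balance of activating and inhibitory receptors is often taken as a ratio, so the UMIs of the 4 ligand-binding chains were summed. Fcgr1, Fcgr3 and Fcgr4 together made up 87.7% (87.3 to 88.0) of these UMIs in WT and 88.3% (87.9 to 88.6) in iKD in the 6 clusters. Fcgr3 gave 60.7% of the UMIs over both genotypes, Fcgr1 26.7%, Fcgr2b 12.1% and Fcgr4 0.520%. Over the 8 clusters the activating share stayed between 86.3% (qNSC2) and 89.98% (aNSC). What differed was the chain that gave it: in aNSC Fcgr1 gave 44.1% and Fcgr3 44.3% of the UMIs, whereas in qNSC1 Fcgr1 gave 20.02% and Fcgr3 67.1%. The number of Fcer1g UMIs per UMI of an activating chain was 1.04 in aNSC, 1.68 in qNSC1 and 1.40 in the 6 clusters together.

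**Figure D2:**
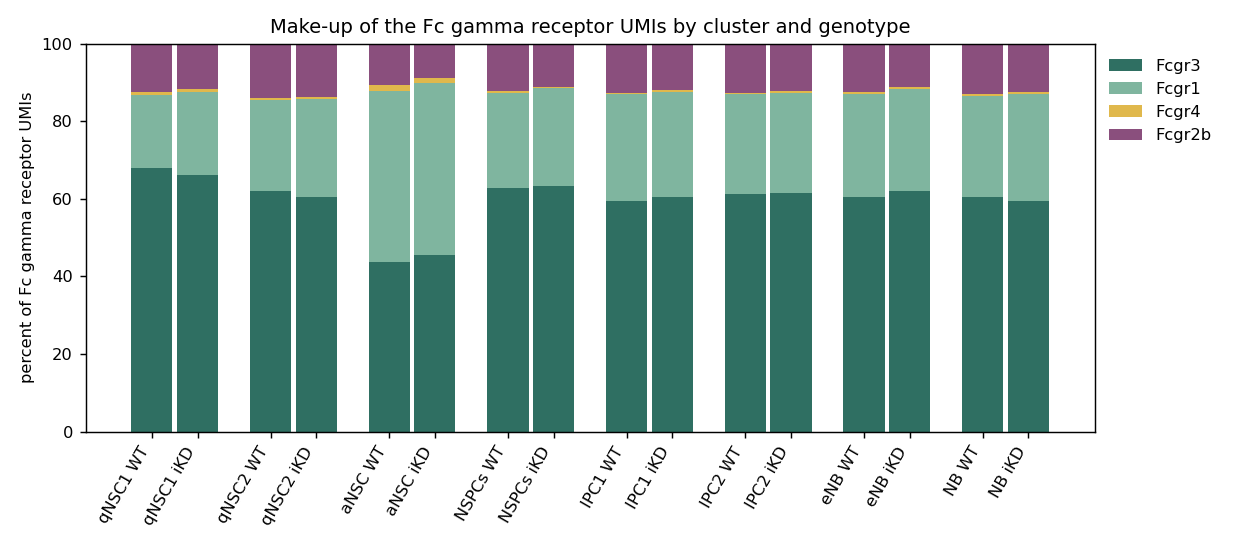
Percent of the summed Fc gamma receptor UMIs (y axis, 0 to 100) given by Fcgr3, Fcgr1, Fcgr4 and Fcgr2b in each of 8 clusters and each genotype (x axis). The inhibitory Fcgr2b, on top, takes 8.79% to 13.9%, and Fcgr1 takes 44.0% and 44.3% in the WT and iKD bars of aNSC.

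Within single cells, seeing 1 receptor changed the share with another by little. Among 6948 cells of the 6 clusters thinned to 4500 UMIs, 0.705% had no UMI of a ligand-binding chain, 13.8% had 1 of the 4 chains, 48.1% had 2, 36.0% had 3 and 1.30% had all 4. Fcgr2b, the inhibitory receptor, was seen in 49.1% of cells with and 46.8% of cells without Fcgr1. Syk was seen in 48.2% of cells with and 46.1% of cells without Fcgr1, and in 47.8% of cells with and 47.6% of cells without Fcgr2b. The widest gap was that of Fcgr4: Fcgr2b was seen in 60.7% (53.6 to 67.5) of 201 cells with Fcgr4 and in 48.2% (47.0 to 49.4) of 6747 cells without it. Without aNSC the shares were 62.4% (54.8 to 69.7) and 48.0% (46.8 to 49.2), and within aNSC, with 28 Fcgr4 cells, 50% (30.6 to 69.4) and 52.2% (46.1 to 58.3). This gap was singled out after the pairs had been compared.

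The 4 clusters outside these 8 differed in how the members stood. In IN2, a cluster named for immature neurons with 288 cells and a median of 3102.5 UMIs, Syk had its highest level of the 12 clusters over both genotypes, and that order rests on the WT library. The level was 2.78 in WT (208 UMIs) beside 1.64 in the 8 clusters, and 1.73 in iKD (50 UMIs) beside 1.58. In iKD the highest level was that of IN1, 2.21 on 17 UMIs of 9 cells. Over both genotypes Syk in IN2 stood at 151% of its level in the 8 clusters, while Fcer1g stood at 19.8%, Fcgr3 at 23.1%, Fcgr1 at 34.3% and Fcgr2b at 40.5% of theirs, and Fcgr4 had 1 UMI. The libraries differed there for receptors too. Fcgr1 had 1.37 in WT (93 UMIs) and 0.742 in iKD (24 UMIs), a log2 ratio of iKD over WT of -0.88 (counting interval -1.59 to -0.22). Fcgr2b had 0.784 (50 UMIs) and 0.288 (7 UMIs), with -1.41 (-2.80 to -0.27). Syk had -0.68 (-1.16 to -0.23), while the intervals of Fcgr3, -0.49 (-1.01 to 0.02), and Fcer1g, -0.35 (-0.71 to 0.01), held 0. Signalling genes went both ways there over both genotypes. The Src family kinase Lyn at 16.3, the phosphatase gene Inpp5d at 25.8 and Ubash3b, which encodes the Syk phosphatase STS-1, at 9.73 were highest in IN2. Tyrobp at 3.05, Ptpn6 at 0.575 and Rac2 at 0.163 lay below their lowest levels in the 8 clusters, 16.2, 1.39 and 0.671. These genes are examples, and no count over the pathway genes was made. The 12 microglia markers in IN2 ranged from 20.4% (Aif1) to 92.5% (Itgam) of their level in the 8 clusters. The low depth of IN2 stands beside these values, and its part in them was not tested.

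In the undefined cluster, 40 cells with a median of 2572.5 UMIs, Fcer1g and Fcgr3 were high and Syk was low. Fcer1g was at 36.5 there (39.2 in WT and 33.6 in iKD), or 238% of its level in the 8 clusters, and Fcgr3 at 13.002, or 169%. Syk had 5 UMIs and a level of 0.488, or 30.3%, while Fcgr1 stood at 98.1% and Fcgr2b at 109%. The 12 microglia markers there ranged from 35.7% (Cx3cr1) to 208% (Aif1), with a median of 92.9%. Tyrobp, which encodes the ITAM adaptor DAP12, was also highest in this cluster, at 46.2. Fcgr4 was seen in 0 of 40 cells, but the limit of 7.50% that this sets lies above its share of 4.12% in the 8 clusters, so nothing can be read from it. In IN1, with 41 WT and 9 iKD cells, Fcgr1 was at 105%, Fcgr3 at 95.7%, Fcer1g at 85.4%, Fcgr2b at 70.9% and Syk at 124% of the level in the 8 clusters, beside 90.4% to 111% for the microglia markers.

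In the astrocyte-named cluster, with 4 WT and 130 iKD cells, the members stood at a common fraction of their level in the 8 clusters. Fcgr1 had 19.5%, Fcgr2b 19.8%, Fcgr3 17.3%, Fcer1g 22.6% and Syk 18.7% of it. The 12 microglia markers ranged from 14.5% to 23.5%, with a median of 19.1%, so 5 members lay within their range. Fcgr4 had no UMI. With a share of 4.12% in the 8 clusters, it was too rare for 134 cells to tell whether it stood at the same fraction. All 8 choroid plexus markers (Ttr among them) had a UMI in at least 52.2% of these cells, with a summed level of 1081.

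**Figure D3:**
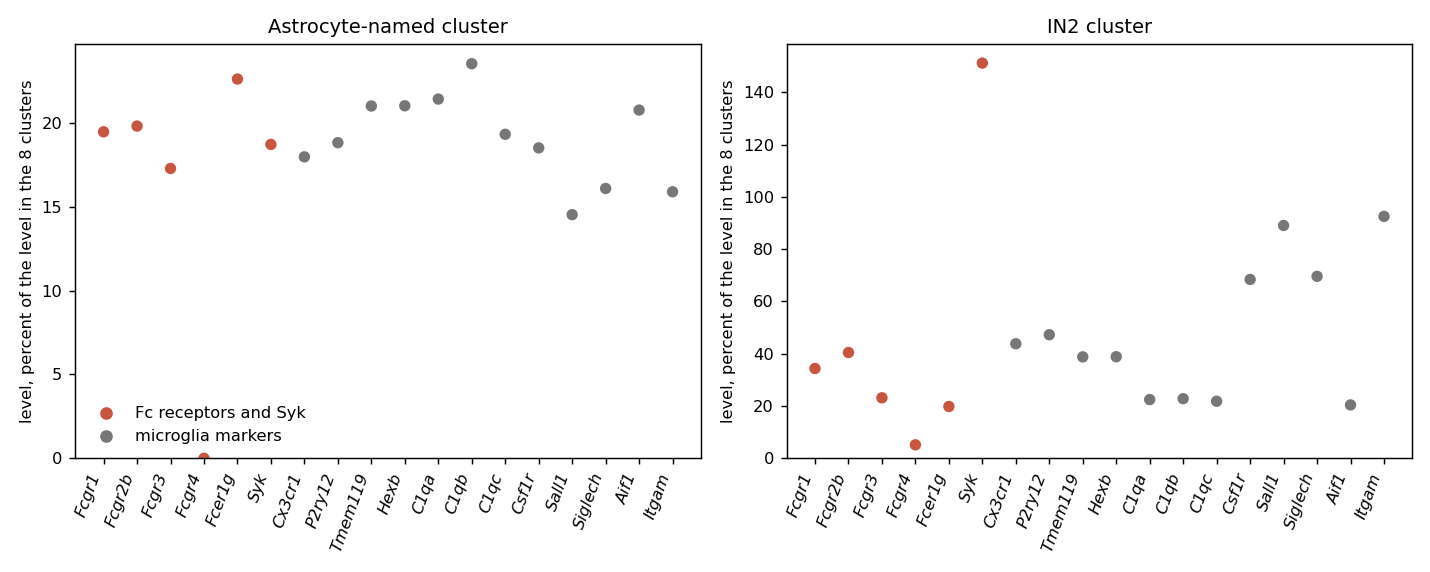
Level of each gene in the astrocyte-named cluster (left) and in IN2 (right) as a percent of its level in the 8 clusters from qNSC1 to NB (y axis, from 0), with Fc receptors and Syk in red and microglia markers in grey. On the left 5 red points lie between 17.3 and 22.6, and on the right Syk is at 151 while the other red points are at or below 40.5.

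The comparison of genotypes asked whether the members differed between iKD and WT in the 6 clusters. All 6 ratios were below 0, and all were small. Fcgr2b had a log2 ratio of iKD over WT of -0.16 (counting interval -0.22 to -0.10), Fcgr1 of -0.10 (-0.14 to -0.06), Fcgr3 of -0.07 (-0.10 to -0.05) and Fcer1g of -0.03 (-0.05 to -0.01). The intervals of Syk, -0.06 (-0.12 to 0.00), and of Fcgr4, -0.06 (-0.37 to 0.24), held 0. The interval covers counting error only and says nothing of the spread between mice or libraries.

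None of the 5 members with a level of at least 0.1 lay past a log2 ratio of 0.25 in either direction, and Fcgr4 did not reach that level. Over all 8836 genes with that level 2.4% lay at or below -0.25 and 2.16% at or above 0.25, with a median of 0.01. The 5 members stood within the body of that distribution but on its lower side, with a median of -0.07. Of the genes, 6.42% had a ratio below that of Fcgr2b, 14.4% below that of Fcgr1 and 19.2% below that of Fcgr3. The share was 23.3% for Syk and 31.5% for Fcer1g. Choroid plexus markers moved with genotype in the same cells, with a summed level of 0.153 in WT and 10.6 in iKD. Their part in the ratios was tried only through a denominator without Ttr, sex-linked and mitochondrial genes, which gave -0.16 for Fcgr2b and -0.10 for Fcgr1.

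The sex of the cells also moved with genotype, and the ratios were recomputed within each sex. In female cells (1765 WT and 2230 iKD) Fcgr1 had levels of 3.45 and 3.44 and a ratio of -0.01 (-0.06 to 0.05). In male cells (1686 WT and 918 iKD) it had 3.73 and 3.23 and a ratio of -0.21 (-0.28 to -0.13). Fcer1g showed the reverse, with -0.09 (-0.12 to -0.07) in female cells and 0.00 (-0.03 to 0.04) in male cells. Fcgr2b was lower in iKD in both, with -0.18 (-0.26 to -0.09) in female cells and -0.11 (-0.22 to -0.00) in male cells, and so was Fcgr3, with -0.08 and -0.06. Syk had -0.01 in female and -0.11 in male cells. No member with a level of at least 0.1 passed 0.25 in either sex, against 3.62% of 8838 genes down and 4.89% up in female cells and 7.04% of 8908 genes down and 7.38% up in male cells. Fcgr4 had 0.18 (-0.25 to 0.61) in female and -0.38 (-0.96 to 0.17) in male cells on 187 and 139 UMIs. Cluster make-up also differed within a sex. Of the male cells, aNSC, where Fcgr1 was highest, gave 139 in WT and 6 in iKD. Within the 8 clusters the male ratio of Fcgr1 was below 0 in 5 and above 0 in 3, and every interval held 0. Of the female cells, NSPCs, where Fcer1g was highest, gave 829 in WT and 656 in iKD. The female ratio of Fcer1g was below 0 in 6 of the 8 clusters. Its interval lay below 0 in 1 and above 0 in 2. Differences between the sexes and the part of cluster make-up were not tested.

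**Figure D4:**
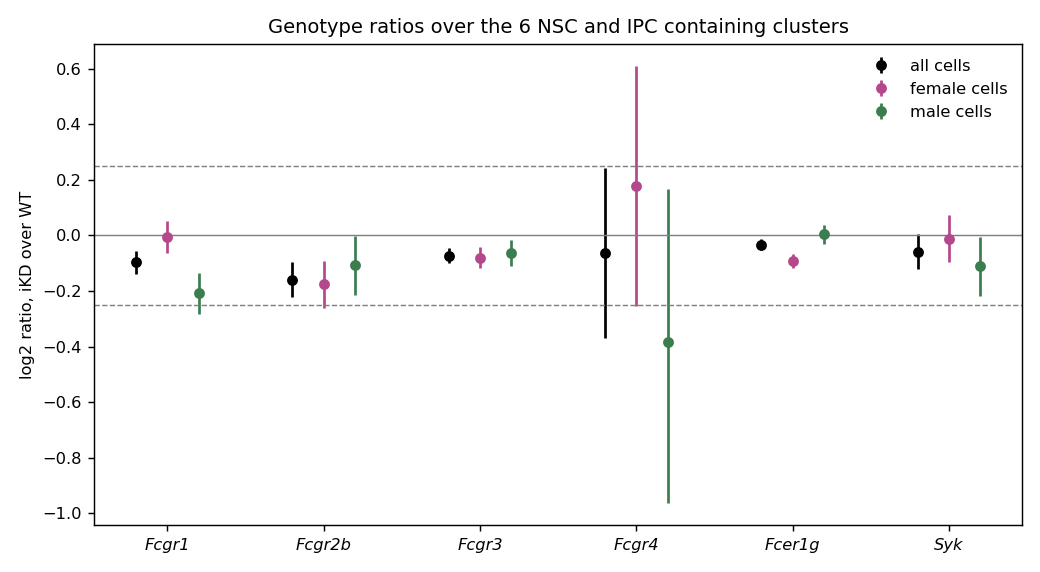
Log2 ratio of iKD over WT (y axis) for each of the 6 genes (x axis) over the 6 clusters, for all cells (black), female cells (pink) and male cells (green), with counting intervals as bars and dashed lines at -0.25 and 0.25. Of the 5 genes other than Fcgr4, every point lies between -0.21 and 0.00, and the bars of Fcgr4 are the widest.

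Within clusters, the inhibitory receptor gave the most regular picture. Fcgr2b was lower in iKD in 8 of 8 clusters, as were 2.31% of the 8836 genes that reached a level of 0.1. Its ratio ran from -0.41 (-0.73 to -0.10) in aNSC, where the levels were 1.84 and 1.39 in a cluster whose sexes differ between genotypes, to -0.07 (-0.19 to 0.05) in IPC1, where they were 1.51 and 1.43. In 4 of the 8 the interval lay below 0. In aNSC it was -0.76 (-1.21 to -0.30) in female cells and -0.93 (-2.81 to 0.45) in male cells, the latter on 6 iKD cells. Within female cells Fcgr2b was lower in 7 of 8 clusters, with an interval below 0 in 3. Within male cells it was lower in 6 of 8, with an interval below 0 in 0. No share of all genes is given for these counts within a sex. Fcgr1 and Fcer1g were lower in 7 of 8 clusters, but with an interval below 0 in 1 and 2 of them, and 8.07% of the 8836 genes were lower in at least 7. Syk was lower in 7 of 8, with an interval below 0 in IPC2 alone, at -0.13 (-0.25 to -0.02). Fcgr3 was lower in 6 of 8 and Fcgr4 in 4 of 8.

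Other genes of the pathway were taken from 6 lists with 86 genes, of which 85 were in the tables and 58 had a level of at least 0.1. Of these 58, 0 had a ratio at or below -0.25 and 1 a ratio at or above 0.25, with a median of 0.00 beside 0.01 for all genes. Over all genes the shares were 2.4% and 2.16%, so the count of pathway genes was no larger than the background. The 1 gene was Ubash3b, an inhibitor of Syk signalling, with levels of 3.63 in WT and 4.39 in iKD and a ratio of 0.27 (0.23 to 0.31). It was 0.22 in female and 0.39 in male cells.

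Among the genes listed for ligands, transcripts of IgG were all but missing from these cells. Such counts concern RNA of the sorted cells, and IgG protein that may reach the receptors was not measured. No UMI of Ighg1, Ighg2c or Ighg3 was found in these 7164 cells, Ighg2b had 2 UMIs in WT and 4 in iKD, and the light chain genes Igkc, Iglc1 and Iglc2 were at 0. Ighm, the heavy chain of IgM and not of IgG, had a level of 1.52 in WT and 1.57 in iKD. Among the other Fc receptors Fcrls, an Fc receptor-like gene known as a microglia marker, had 19.7 in WT and 17.3 in iKD, a ratio of -0.18 (-0.20 to -0.17), which was -0.29 in female and -0.05 (-0.08 to -0.02) in male cells. Fcgrt, the neonatal Fc receptor that salvages IgG, had 0.611 and 0.639. The chains of the IgE receptor that pair with Fcer1g in mast cells, Fcer1a and Ms4a2, were at 0, as were Pigr and Fcamr.

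Of the other ITAM adaptors, Tyrobp had the same level in both libraries to 3 digits, 18.8, and a ratio of -0.00 (-0.02 to 0.02). Trem2, a receptor that signals through it, had 18.3 in WT and 15.97 in iKD, a ratio of -0.20 (-0.22 to -0.18). The sexes went opposite ways, with -0.38 (-0.40 to -0.35) in female and 0.07 (0.04 to 0.10) in male cells. Lyn, a Src family kinase, had a level of 10.9 in WT and 10.1 in iKD (-0.11, -0.13 to -0.09). Yes1, of the same family, had 0.729 and 0.707, and Fgr did not reach a level of 0.1. Lyn was, like Fcgr1 and Fcgr4, highest in aNSC among the 8 clusters, at 12.6. Of 28 Syk substrates and effectors 25 reached the level, with a median ratio of 0.03. They included Blnk at 3.97 and 3.79, Plcg2 at 1.92 and 2.01 and Vav1 at 2.20 and 2.39, while Zap70, the relative of Syk in T cells, was at 0. Of the 19 inhibitors and phosphatases with that level, Inpp5d had the highest level, 14.1 in WT and 13.8 in iKD.

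Within 1 sex a few more pathway genes passed 0.25. In female cells Trem2 (-0.38), Fcrls (-0.29) and the inhibitory receptor gene Cd300a (-0.28) were past it downwards and the adaptor gene Gab3 (0.29) upwards. In male cells Src (-0.33), Fcrl1 (-0.29), Pirb (-0.27) and Plcg1 (-0.27) were past it downwards and Ubash3b upwards. That is 3 and 4 of 58 genes downwards, beside 3.62% and 7.04% of all genes. In male cells the counting intervals of Src (-0.69 to 0.02), Pirb (-0.70 to 0.14) and Plcg1 (-0.56 to 0.01) held 0.

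**Figure D5:**
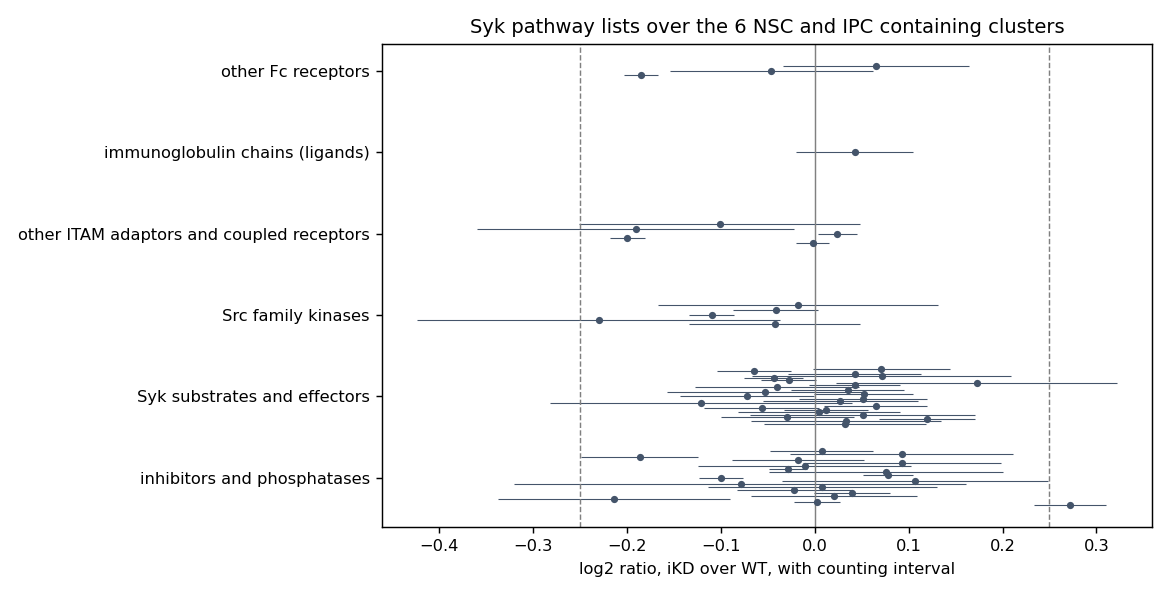
Log2 ratio of iKD over WT (x axis) for the 58 pathway genes with a level of at least 0.1, by list (y axis), over the 6 clusters, with counting intervals as bars and dashed lines at -0.25 and 0.25. A single point, Ubash3b at 0.27, lies past a dashed line.

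The genes whose cluster pattern was most like that of each member were taken by the correlation of log2 levels over the 8 clusters, out of 4585 genes that reached a level of 0.5 in some cluster. For Fcgr1 they were Trafd1 (0.99), Lgals9 (0.98) and Parp12 (0.98), and for Fcgr4 Slfn2, Nlrc5 and Oasl2 (0.99 each). For Fcer1g they were Atp5k, Coa3 and Rer1 (0.99 each), for Fcgr3 Trmt112 (0.97), Rabac1 (0.96) and Gpx4 (0.93), and for Fcgr2b, with lower values, Tmem109 (0.89), Pomp (0.88) and Casp1 (0.86). For Syk they were Rapgef6, Mtus1 and Accs (0.99 each). Over the 11 clusters other than the undefined one, where IN2 and the astrocyte-named cluster set the extremes, the leading genes were Tyrobp for Fcer1g, C1qc for Fcgr3, Cd47 for Fcgr1, Leprot for Fcgr2b, Ly6e for Fcgr4 and Git2 for Syk. Each was picked as the highest of 4585 or 6059 correlations over a few points from the same libraries, and none was tested.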

How the data were processed

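The values in the deposited tables, 1 per cluster, are natural logs of 1 plus counts per 10,000 UMIs, which the authors made with Seurat 4.1.1 from Cell Ranger 7.0.1 output. The submitters' processing notes name the build GRCh38, although the symbols are those of mouse. Whole UMI counts were recovered from the smallest value of each cell, and 100% of 32261786 values came out within 0.01 of a whole number. Levels are means over cells of counts per 10,000 UMIs, and log2 ratios use a pseudocount of 0.01. Intervals (95%) are exact binomial for shares and ratios and exact Poisson for UMIs and cover counting error only. A count of 0 is given a limit of 3 counts. Cells are not replicates, and with 1 library per genotype no p-value is given. A cell was called female if it had Xist but no UMI of 4 Y-linked genes (Ddx3y, Eif2s3y, Kdm5d and Uty), and male in the reverse case. The deposited cells were used as they are, with no doublet caller. An alternative left out the 5% of cells with most genes. Of all cells, 4.59% had fewer than 2000 genes, the lower limit the study states. The named genes are the members, the pathway and marker lists, and the 3 genes most like each member. Some items are not reported here. The members and lists were chosen with earlier results of these data known. Scripts used Python 3.11, numpy, scipy and pandas and were tested on simulated data. Positions and transcripts come from GENCODE M21 (GRCm38), which may not be the build of the authors.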

Additional observations from a re-analysis of the deposited data

Results flagged for a closer look

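Fcer1g had ratios of opposite sign whose counting intervals left out 0. In qNSC1 its log2 ratio of iKD over WT was 0.1384, with levels of 16.6 and 18.2, and it was 0.12 in female and 0.23 in male cells of that cluster. In aNSC it was -0.1014 and in NSPCs -0.03864, with intervals from -0.20 to -0.00 and from -0.07 to -0.00. The difference between the clusters was not tested.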

How the results depend on the processing

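Of the recomputed ratios of the 6 genes, 64 stayed within their counting interval, 7 left it and 1, Fcer1g in male cells (0.00346), left it and changed sign. Fcgr4, whose interval holds 0, also changed sign, to 0.18 in female cells and 0.07 as the mean of the 6 ratios within clusters. Outside that count, over the 8 clusters, Fcgr1 was 0.0110 in female cells and Fcer1g 0.00966 in male cells. Both lay outside the interval of the main ratio and had the opposite sign. Over the 6 clusters Fcer1g was -0.0914 in female cells, -0.0630 without IPC2 and -0.00777 as the mean of the 6 ratios within clusters. Fcgr1 was -0.00555 in female cells, -0.21 in male cells and -0.0286 as that mean, and Fcgr4 was -0.38 in male cells. The activating share in iKD was 87.8% in male cells. Pathway genes past 0.25 downwards numbered 2 with no filter on level, 3 in female and 4 in male cells, and upwards 2 with no filter. The share of all genes past 0.25 went from 2.4% to 5.53% downwards and from 2.16% to 5.25% upwards with no filter. The causes were not tested. The alternatives without IPC2, with the mean of the female and male ratios and of co-detection without aNSC were chosen after seeing the data. The cluster with the highest level of the 8 was the same for all 6 genes with summed UMIs, and after thinning Fcgr2b was seen most often in aNSC and Syk in IPC1. Of all 12, IN1 then had the highest share for Fcgr3, Fcer1g and Syk, and with summed UMIs the undefined cluster was highest for Fcgr2b. No paired analysis was possible because each genotype has 1 library. Depth limits Fcgr4, with 367 UMIs in the 6 clusters.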
